A study of Mus musculus with 12 samples.

Results

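Transcript levels in cumulus cells of 3-month-old ClpP-/- female mice (KO) were compared with those of wild-type females (WT) of the same age. The comparison used the 6 libraries that the labels place at 3 months, 3 KO and 3 WT, of 12 libraries in all. Genes with a level of at least 1 FPKM (sequenced fragments scaled to transcript length and library depth) in at least 3 of these 6 libraries were tested, which left 10060 of the 23997 rows of the table. All mice were C57BL/6J, and all received 5 IU of pregnant mare serum gonadotropin, a hormone that drives follicle growth, with no ovulatory trigger named in the labels. The labels' treatment protocol puts collection 44 h after the injection, the design text of the series 48 h. The other 6 libraries, KO and WT at 6 months, served to estimate the spread and to test whether a difference at 3 months differed from that at 6 months. Each library held 100 cumulus cells pooled from 1 mouse, amplified by the Smart-Seq2 method, so each group rests on 3 mice. Knockout is labelled as ClpP-/- and no cell type restriction is named, so other cells of the ovary are not named as spared.

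ClpP is the peptidase subunit of ClpXP, a protease of the mitochondrial matrix in which the ATPase ClpX unfolds proteins and feeds them into the ClpP chamber. ClpXP takes part in matrix protein quality control and in the assembly of mitochondrial ribosomes, and it has been linked to the mitochondrial unfolded protein response, in which matrix chaperones and proteases are induced from the nucleus. Cumulus cells are the granulosa cells that enclose the oocyte, feed it pyruvate and other metabolites through gap junctions, and lay down a hyaluronan matrix when the follicle is triggered to ovulate.

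The libraries were first checked against their labels. Inha, which encodes the inhibin alpha subunit of granulosa cells, stood at 3382, 4943 and 5791 FPKM in libraries 1, 2 and 3 of WT, against 4226, 6334 and 2590.2 in KO libraries 1, 2 and 3. All 10 granulosa and cumulus markers were above 0 in all 6 libraries, and their levels summed to 4644, 5356 and 6859 in WT libraries 1, 2 and 3 and 5444, 7012 and 2768 in KO libraries 1, 2 and 3. KO library 3 therefore had the lowest sum of the 6. Inha made up most of each sum, and the members did not all follow it. Fst and Inhba were also lowest in KO library 3, at 31.5 and 11 FPKM. Nr5a2 stood at 10.1 there, against 3.81, 5.59 and 10.4 in WT and 7.56 and 7.61 in KO libraries 1 and 2. Foxl2 was lowest in WT libraries 1 and 2. Theca and stromal markers summed to 9.67, 6.09 and 158 in WT libraries 1, 2 and 3 and 69.1, 2.04 and 1277 in KO libraries 1, 2 and 3, and the theca steroid enzyme Cyp17a1 alone gave 4.46, 0.269 and 119 in WT, against 24.8, 0.197 and 932 in KO. Of these 13 markers 1 was at 0 in KO library 3 and 5 in KO library 2. Blood and leukocyte markers summed to 13.3, 20.5 and 823 in WT libraries 1, 2 and 3 and 36.3, 4.49 and 891 in KO libraries 1, 2 and 3, most of it from the globin genes Hbb-b1 and Hba-a1 in library 3 of each genotype. Oocyte markers summed to 1.66, 6.45 and 11.9 in WT libraries 1, 2 and 3 and 7.07, 3.41 and 66.2 in KO libraries 1, 2 and 3. KO library 3 was the highest of the 6 for theca, blood, oocyte and endothelial markers, and WT library 3 was second for theca, blood and oocyte markers. In pooled cells, more cells of another type and more RNA per such cell cannot be told apart.

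**Figure D1:**
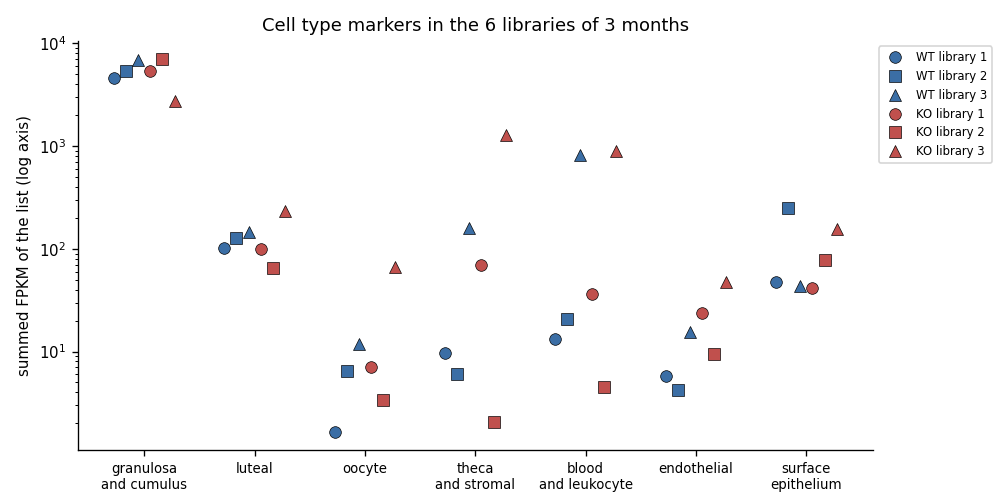
Summed FPKM (vertical, log axis) of 7 cell type marker lists (horizontal) in each of the 6 libraries of 3 months, WT in blue and KO in red, with circle, square and triangle for libraries 1, 2 and 3. KO library 3 stands highest for theca and stromal markers, at 1277 FPKM, and lowest for granulosa and cumulus markers, at 2768 FPKM, most of it Inha.

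Depth, read from the spacing of low values, ran from 0.680 to 1.0 of the deepest of the 6 libraries, and 9335 to 10807 genes reached 1 FPKM in a library. Small RNA entries, mostly the precursor Mir7686, held 32.0% of the FPKM sum in KO library 3 and 25.7% in WT library 1, and 6.82% or less in the other 4. Correlations of log2 levels across the genes tested ran from 0.924 to 0.932 between WT libraries and from 0.877 to 0.933 between KO libraries. WT library 3 correlated with KO libraries 1 and 2 at 0.937 and 0.942, above its correlations with WT libraries 1 and 2 of 0.931 and 0.924. Its Clpp level was nevertheless the highest of the 6, so the targeted gene went with its label.

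Clpp (GRCm38 chromosome 17, 56990305 to 56996188, plus strand, GENCODE M21) stood at 88.2, 130.0 and 146 FPKM in libraries 1, 2 and 3 of WT, against 6.63, 1.1 and 2.07 in KO libraries 1, 2 and 3. The groups were far apart, and no KO library came near the lowest WT library. The mean was 121 ± 29.9 FPKM (SD, n = 3) in WT and 3.27 ± 2.95 (n = 3) in KO, or 2.69% of WT. Clpp fell by 5.03 on the log2(FPKM + 1) scale, the scale of all log2 differences here (SE 0.54, limma with Benjamini-Hochberg adjustment, adjusted p = 0.00686). It was the only 1 of 10060 genes called at an adjusted p under 0.05, a share of 0.00994%. An exact 2-sided permutation test of the FPKM values gave p = 0.1, the smallest that 3 against 3 libraries allow. The call was lost in 6 of the 16 alternative analyses, among them those without WT library 2 (log2 difference -4.97, adjusted p = 0.0865), without KO library 2 (-4.63, adjusted p = 0.0504) and without KO library 3 (-4.90, adjusted p = 0.0603), while its level stayed far below WT in each. Of 5 tested neighbours of Clpp on chromosome 17 none was called (smallest limma adjusted p = 0.841). Alkbh7, a mitochondrial protein gene next to it, stood at 30.1, 41.9 and 76.6 FPKM in WT, against 39.2, 54.3 and 106 in KO, with overlapping groups.

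No other gene passed, so the further values are a description of these 6 libraries. An unadjusted p under 0.05 was found for 712 genes (7.08%), 353 of them higher and 359 lower in KO. KO libraries all lay above all WT libraries for 525 genes (5.22%) and all below them for 542 (5.39%). Of these, 62 genes (0.616%) reached 1 FPKM in no library of 1 group and so passed the filter through the other group alone. The median log2 difference over all genes was -0.0019, and 49.8% of genes lay above 0. The median varied with transcript length. It was -0.051 over the 1918 shortest genes (45.7% above 0). From 1594 to 2419 nt it was 0.11 (59.3% above 0), and from 2421 to 3351 nt 0.092 (57.2%). Over the longest genes, from 4712 nt, it was -0.16 (35.3%). The part of length in the list medians below was not tested. WT library 3 was the WT library nearest to KO in 310 of the 542 lower and 285 of the 525 higher genes, 55.8% together, against 27.3% for WT library 1 and 17.0% for WT library 2. Leaving WT library 3 out gave 14 called genes, 3 higher and 11 lower, with limma adjusted p from 0.000487 to 0.0475. Of these 14, 8 are described here, Clpp, Sult1e1, Tnfaip6, Osgin2, Htr1d and Eif4ebp1 (lower) and Klf2 and Sult5a1 (higher). The other 6 were Tubb2a, Clic1, Fbxo32, Coq10b and Wdyhv1 (lower) and Gm684 (higher), named after their values were seen. Without KO library 3 and library 3 of each genotype at 6 months, all high in other-cell markers, 1428 genes had an unadjusted p under 0.05. Clpp remained the only 1 called. WT library 3 of 3 months, second highest of the 6 in theca, blood and oocyte markers, was kept there.

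None of the 7 other matrix protease genes of the list passed, and all 7 lay above 0. The median log2 difference was 0.31 with Clpp included (0.16 to 0.50 with 1 library left out), against -0.0019 over all genes. Lonp1, the ATP-dependent Lon protease that shares matrix quality control with ClpXP, stood at 36.9, 19.7 and 11.2 FPKM in WT, against 28.4, 34.6 and 39.9 in KO (log2 difference 0.72, SE 0.39). The groups overlapped, since WT library 1 lay above KO libraries 1 and 2. Clpx, the ATPase partner of ClpP, stood at 38.5, 21.3 and 20.7 in WT, against 34.9, 57.8 and 25.7 in KO, again overlapping (log2 difference 0.52, SE 0.40). Htra2, a protease of the intermembrane space, stood at 11.4, 3.97 and 16.1 in WT, against 16.6, 17.7 and 19.2 in KO, where every KO library lay above every WT library by a small margin (log2 difference 0.88, SE 0.51).

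Matrix chaperones had a median of 0.41, with 7 of 8 members above 0 and none called. All KO libraries lay above WT for 2 members, against 5.22% of all genes. Hspd1, which encodes the chaperonin HSP60, stood at 219, 297 and 257 FPKM in WT, against 499.8, 477 and 474 in KO. The KO libraries lay close together and all above WT, with a mean 1.88 times that of WT (log2 difference 0.92, SE 0.24, limma adjusted p = 0.569). Its partner co-chaperonin Hspe1 (named, like Hspa9, Atf5, Trib3, Uqcrc1, Ptgs2, Ptx3 and Cyp19a1, after the values were seen) did not separate the groups, at 506, 1489 and 1062 in WT, against 1549, 768 and 1589 in KO. Dnaja3, a matrix co-chaperone of mitochondrial HSP70, stood at 10.2, 8.73 and 11.5 in WT, against 16, 22 and 19.9 in KO without overlap (log2 difference 0.86, SE 0.28, limma adjusted p = 0.629). Hspa9, the mitochondrial HSP70 itself, stood at 155, 132 and 87.9 and 129, 172 and 151 with overlap. Grpel1, its nucleotide exchange factor, was the 1 member below 0, at 102, 112 and 95.3 in WT, against 63.7, 106 and 77.3 in KO. Inner-membrane proteases and prohibitins had a median of 0.44, with 9 of 11 above 0 (0.27 to 0.54 with 1 library left out). Afg3l2, a subunit of the m-AAA protease, stood at 7.88, 9.01 and 7.69 in WT, against 14.9, 16.5 and 10.2 in KO, and it was the only member whose groups did not overlap (log2 difference 0.67, SE 0.27, limma adjusted p = 0.666). Oma1, the protease that cleaves the fusion protein OPA1 under stress, stood at 11.8, 6.41 and 10.3 and 11.8, 20.1 and 12.2, with WT library 1 level with KO library 1.

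**Figure D2:**
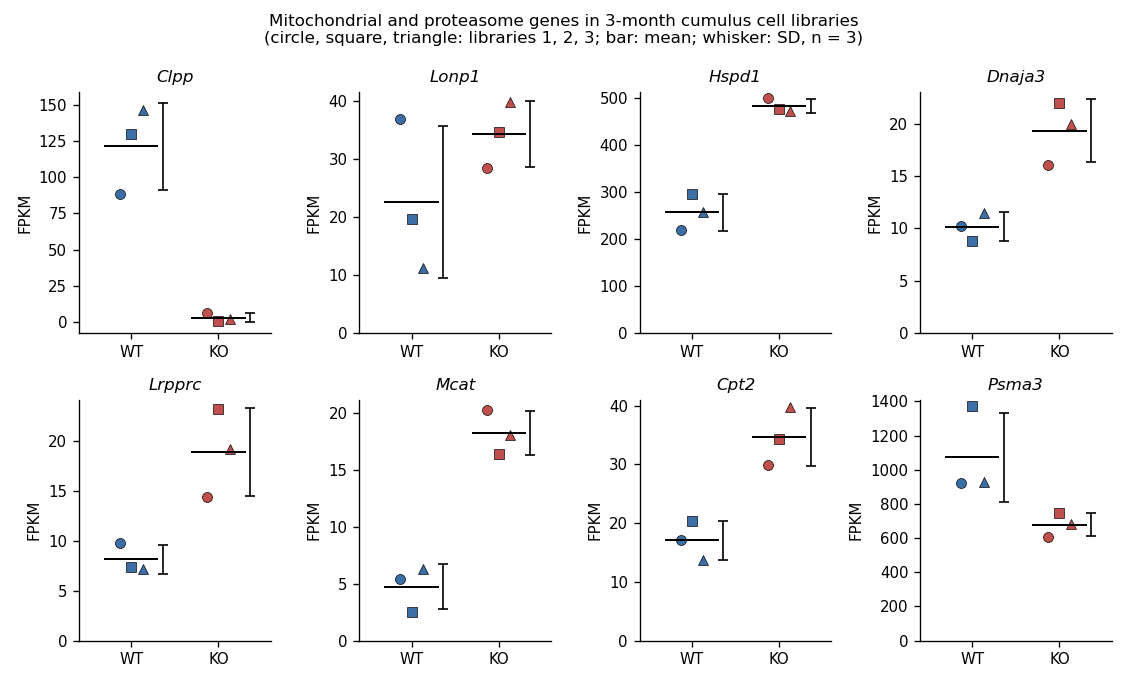
FPKM (vertical axis, from 0) of 8 genes in WT (blue) and KO (red) libraries of 3 months, with circle, square and triangle for libraries 1, 2 and 3, bars for means and whiskers for SD, n = 3. Clpp stands at 88.2 to 146 in WT and 1.10 to 6.63 in KO, Hspd1, Dnaja3, Lrpprc, Mcat and Cpt2 have all KO points above all WT points, Psma3 lies lower, and Lonp1 overlaps.

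Regulators placed upstream of these chaperones were split. Of 9 such genes tested 6 lay below 0 (median -0.35), none was called, and of the 3 whose groups did not overlap 2 were higher and 1 lower in KO. Over all genes the shares were 5.22% higher and 5.39% lower. Esr1, an estrogen receptor gene, was the only member with an unadjusted p under 0.05. It stood at 3.46, 4.92 and 0.925 FPKM in WT, against 0.218, 0.794 and 2.05 in KO, overlapping. Its log2 difference was -0.98 (SE 0.44, limma adjusted p = 0.701). Atf4, a translation-controlled stress transcription factor, stood at 694, 445 and 175 FPKM in WT, against 199, 278 and 211 in KO, where WT library 3 was the lowest of the 6. Ddit3, which encodes CHOP, stood at 372, 104 and 65.9 and 15.7, 59.2 and 143, overlapping. Cebpb, a bZIP factor that pairs with both, stood at 202, 370.0 and 218 in WT, against 153, 151 and 139 in KO, and the groups did not overlap (log2 difference -0.78, SE 0.43, limma adjusted p = 0.734). Hsf1, the heat shock transcription factor, lay the other way without overlap, at 21, 11.1 and 14.5 in WT, against 25.2, 24.8 and 21.7 in KO (log2 difference 0.63, SE 0.53, limma adjusted p = 0.806). Foxo3, a forkhead transcription factor, did so as well at low levels, 0.638, 1.39 and 0.823 in WT, against 1.89, 2.03 and 1.45 in KO (log2 difference 0.53, SE 0.34, limma adjusted p = 0.773). Atf5, the factor held closest to the nematode regulator of this response, was under the filter, at 1.16, 0.624 and 0.396 in WT, against 0, 0.168 and 1.68 in KO.

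Factors of mitochondrial translation lay mostly above 0. Among 18 genes for mitoribosome assembly and translation 15 were above 0 (median 0.38, 0.25 to 0.50 with 1 library left out) and none was called. Groups did not overlap for 2, both higher in KO, against 5.22% of all genes. Lrpprc, an RNA-binding protein that stabilises mitochondrial mRNAs, stood at 9.75, 7.38 and 7.19 FPKM in WT, against 14.3, 23.1 and 19.1 in KO. All KO libraries lay above WT, on average 2.33 times as high (log2 difference 1.11, SE 0.28, limma adjusted p = 0.56). Dhx30, an RNA helicase of mitochondrial ribosome assembly, stood at 6.89, 1.64 and 3.61 in WT, against 6.23, 13.4 and 8.02 in KO, with 1 WT library inside the KO range. Mtrf1, a mitochondrial translation release factor, stood at 5.52, 8.16 and 12.2 in WT, against 13.5, 13.6 and 19.8 in KO without overlap. The 77 mitochondrial ribosomal protein genes were split, 41 above and 36 below 0 (median 0.023), with none called. Mrps34 stood at 59.5, 70.7 and 97.8 in WT, against 105, 109.5 and 126 in KO, and Mrpl38 at 43.2, 43.3 and 59.7 and 85.7, 77.5 and 66.9, both without overlap, while Mrpl13 lay on the other side at 279, 403 and 392 and 238, 304 and 263. Genes for mitochondrial DNA upkeep and transcription had a median of -0.0025 over 13 members. Gabpa, a nuclear factor for many mitochondrial genes, stood at 15.5, 17.6 and 9.2 in WT, against 8.38, 6.96 and 7.16 in KO, and Polg2, the accessory subunit of the mitochondrial DNA polymerase, at 6.55, 0.376 and 5.63 and 8.87, 7.91 and 6.7, neither overlapping nor called.

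Nuclear genes of the respiratory chain lay mostly below 0. Complex I had 31 of 37 members below 0 (median -0.17) and complexes II to V 31 of 41 (median -0.21), with none called in either. With 1 library left out the medians ran from -0.42 to -0.054 in complex I and from -0.42 to -0.067 in the others, nearest to 0 without WT library 2 or 3 and without WT library 2. The groups did not overlap for 3 of these genes on the lower side, 2 in complex I and 1 in the others. Over all genes that share was 5.39%. On the higher side Uqcrc1, a core subunit of complex III, stood at 294, 263 and 275 FPKM in WT, against 320.3, 426 and 298 in KO without overlap. Ndufv3, an accessory subunit of complex I, stood at 476, 654 and 579 FPKM in WT, against 420.4, 355 and 403 in KO. Ndufs1, its largest iron-sulfur subunit, lay on the other side with overlap, at 70.8, 42 and 50.1 and 80.3, 97.4 and 56.2. Cycs, which encodes cytochrome c, stood at 286, 664 and 427 in WT, against 339, 302 and 223 in KO, where WT library 1 lay among the KO libraries. The centred median of complex I genes was -0.35, 0.36 and 0.31 in WT libraries 1, 2 and 3 and -0.21, -0.13 and -0.032 in KO libraries 1, 2 and 3, so WT library 1 was the lowest of the 6 and WT libraries 2 and 3 the highest. These are short transcripts, with a median length of 971 nt in complex I and 838 nt in complexes II to V against 2853 nt over all genes. Over the 1918 shortest genes the centred medians were -0.26, 0.12 and 0.22 in WT libraries 1, 2 and 3, with library 1 again lowest, and the part of transcript length in the difference was not tested. Mitochondrial protein import genes had 19 of 25 members below 0 (median -0.12), and no member separated the groups.

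Fuel oxidation genes of the matrix lay mostly above 0. Fatty acid oxidation had 20 of 21 members above 0 (median 0.42), and none was called. Median transcript length was 2047 nt for this list and 2580 nt for the tricarboxylic acid cycle. For inner-membrane proteases it was 1874 nt, for matrix chaperones 2535.5 nt and for mitoribosome factors 2623 nt. In these ranges of length 57.2% to 59.3% of all genes lay above 0. Groups did not overlap for 5, all higher in KO, against 5.22% of all genes. Cpt2, which releases long-chain acyl groups into the matrix, stood at 17.1, 20.3 and 13.8 FPKM in WT, against 29.9, 34.3 and 39.7 in KO, with all KO libraries above WT (log2 difference 0.99, SE 0.28, limma adjusted p = 0.617). Acads, the short-chain acyl-CoA dehydrogenase, stood at 8.59, 4.76 and 12.8 in WT, against 16, 15.3 and 18.8 in KO, and Echs1, the enoyl-CoA hydratase, at 169, 149 and 192 and 218, 221 and 247. The centred median of the list was -0.25, -0.24 and -0.18 in WT libraries 1, 2 and 3 and -0.042, 0.14 and 0.51 in KO libraries 1, 2 and 3, highest in KO library 3, and without that library the median difference was 0.31. The tricarboxylic acid cycle had 17 of 19 members above 0 (median 0.22, 0.085 to 0.31 with 1 library left out). Pcx, pyruvate carboxylase, which refills the cycle with oxaloacetate, stood at 0.918, 0.61 and 1.51 in WT, against 4.27, 1.63 and 8.46 in KO without overlap, and Sucla2, a succinyl-CoA ligase subunit, at 79.7, 88.5 and 87.5 and 97.2, 119.8 and 114. Mcat (GRCm38 chromosome 15, 83546797 to 83563787, minus strand), the malonyl transferase of mitochondrial fatty acid synthesis that feeds lipoate production, stood at 5.38, 2.52 and 6.3 in WT, against 20.3, 16.4 and 18 in KO. The mean was 4.73 ± 1.97 (SD, n = 3) in WT and 18.2 ± 1.95 (n = 3) in KO, 3.85 times as high, and Mcat did not pass (log2 difference 1.81, SE 0.35, limma adjusted p = 0.371). The lipoate synthase gene Lias stood at 43.3, 39.8 and 40 and 49.9, 46.7 and 52.3, a separation of a few FPKM.

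Heme synthesis and iron-sulfur genes were mixed, 13 of 22 above 0 (median 0.11), with 4 members not overlapping, all higher in KO. Over all genes 5.22% lay higher in this way. Fech, ferrochelatase, which inserts iron to form heme in the matrix, stood at 22.4, 3.9 and 19.7 FPKM in WT, against 31, 29.6 and 41.4 in KO (log2 difference 1.38, SE 0.52, limma adjusted p = 0.651). Fdxr, ferredoxin reductase, which passes electrons to steroid and iron-sulfur enzymes, stood at 17.3, 21.7 and 26.3 in WT, against 42.2, 43.7 and 84.8 in KO. The highest KO value, KO library 3, was the library high in theca markers, and the other KO libraries still lay above WT. Alad and Urod, cytosolic enzymes of heme synthesis, stood at 11.1, 26 and 23.6 and 59.5, 52.6 and 61.5 in WT, against 28, 26.8 and 41.9 and 70.6, 87.7 and 93.4 in KO. Gbas, a mitochondrial protein gene also called Nipsnap2, stood at 13.8, 9.72 and 13.4 in WT, against 35.4, 30.2 and 25.4 in KO, without overlap (log2 difference 1.24, SE 0.28, limma adjusted p = 0.56).

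**Figure D3:**
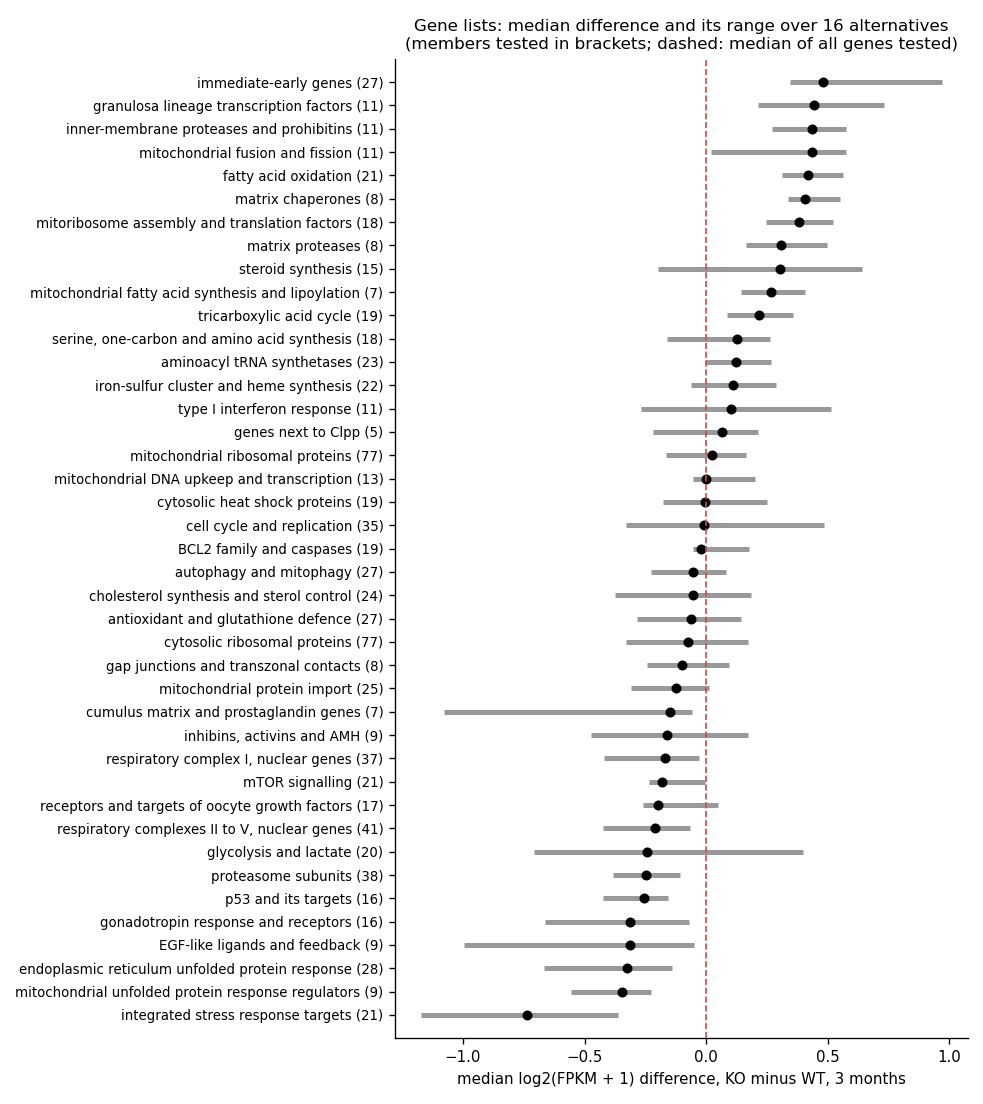
Median log2(FPKM + 1) difference, KO minus WT (horizontal axis), of each of 41 gene lists (rows, members tested in brackets), with a point for the value reported and a grey bar for its range over 16 alternative analyses. The dashed line is the median of all genes, and integrated stress response targets stand lowest at -0.74 and immediate-early genes highest at 0.48. The lists were chosen with earlier results of these data known.

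Targets of the integrated stress response, the ATF4-driven program that raises amino acid supply and restrains translation, had the lowest median of the 41 lists other than cell type markers, -0.74, with 17 of 21 members below 0. The lists were chosen with earlier results of these data known, so the rank is no test. Atf4, Ddit3 and Cebpb also belong to the regulator list above. None was called, and 4 had all KO libraries below all WT libraries, against 5.39% of all genes. Nupr1 (GRCm38 chromosome 7, 126623249 to 126630861, minus strand), a stress-induced chromatin protein, stood at 3637, 2656 and 1204 FPKM in WT, against 113, 202 and 190.4 in KO. The WT libraries differed among themselves and even the lowest, WT library 3, lay far above the highest KO library (log2 difference -3.79, SE 0.69, limma adjusted p = 0.324). Eif4ebp1, a repressor of cap-dependent translation, stood at 964, 1067 and 480.1 in WT, against 300.1, 401 and 364 in KO, with WT library 3 nearest to KO (log2 difference -1.16, SE 0.29, limma adjusted p = 0.56). Without WT library 3 it was called (log2 difference -1.52, adjusted p = 0.0475). Cebpg, a partner of ATF4, stood at 26, 17.1 and 8.89 in WT, against 4.5, 5.08 and 9.44 in KO, and Trib3, a pseudokinase target, at 52.8, 4.61 and 0.364 and 1.28, 0.488 and 11.8, where only WT library 1 was high. Eif2ak4, the amino acid sensing kinase GCN2, lay the other way, at 1.18, 0.189 and 1.8 in WT, against 2.94, 2.14 and 2.97 in KO. The centred median of the list was 1.14, 0.48 and -0.14 in WT libraries 1, 2 and 3 and -0.62, -0.075 and -0.064 in KO libraries 1, 2 and 3. WT libraries 1 and 2 were thus above the other 4, and WT library 3 lay inside the KO range. Leaving out WT library 1 gave a median of -0.36 and leaving out WT library 3 one of -1.17, while leaving out KO library 3 gave -0.69. Aminoacyl tRNA synthetase genes, some of them ATF4 targets too, did not share the sign, with 17 of 23 above 0 (median 0.12).

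The endoplasmic reticulum unfolded protein response list had 23 of 28 members below 0 (median -0.33), 4 without overlap and none called. Those 4 were lower in KO, against 5.39% of all genes. Selk, a selenoprotein of the degradation pathway at that membrane, stood at 560.2, 669 and 388 FPKM in WT, against 223, 241 and 279 in KO (log2 difference -1.09, SE 0.38, limma adjusted p = 0.629). Xbp1, a transcription factor of this response, stood at 653, 490.1 and 129 and 159, 199.9 and 123, with WT library 3 among the KO libraries. Manf, a secreted factor of the same program, stood at 402, 499.7 and 384 and 387, 347 and 107, with KO library 3 far below the other 5. The centred median of the list was -0.98 in KO library 3, and without that library the median difference was -0.14.

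Of the genes lower in KO that were looked up, 3 had a stress or activation motif within 250 bases before their RefSeq start (GRCm38.p6). The matching stretches are shown as a description of sequence, and a link between the motifs and the levels was not tested. TGATGNAA is the core of sites bound by ATF4 with C/EBP partners, TGANTCA that of AP-1 sites, and both strands were searched. Each line below gives 30 bases, 5′ to 3′ on the gene's strand, with the match in capitals. In the first, at chr7:126625562-126625591 (minus strand), the match starts 110 bases before the RefSeq start of Nupr1. The stretch overlaps an annotated exon of GENCODE M21. In the second, at chr5:87591662-87591691 (minus strand), the match starts 69 bases before the RefSeq start of Sult1e1. In the third, at chr2:52037960-52037989 (plus strand), it starts 142 bases before that of Tnfaip6. These last stretches both lie outside annotated exons.
Nupr1: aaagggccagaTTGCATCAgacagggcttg
Sult1e1: ccctccatccaTTACATCAtagtccattcc
Tnfaip6: gccaatgcaaaTGAGTCAgagggcttgctt

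A TGATGNAA match was present in 3.45% and a TGANTCA match in 6.75% of all 32851 promoter windows of this length, so a match describes the sequence and says nothing of binding. Promoters were looked up for 8 genes chosen after their values were known, and 4 of them, these 3 and Clpp, were in the RefSeq table. None of the 4 windows held TGACGTCA, the cyclic AMP response element (1.55% of all windows), or the shorter TGACG contained in it (17.77%), and that of Clpp held none of the motifs.

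Proteasome subunit genes lay mostly below 0, with 30 of 38 members there (median -0.25), and 7 had all KO libraries below all WT libraries, none called. Over all genes 5.39% lay lower in this way. Psma3, a subunit of the outer ring of the 20S core, stood at 920.2, 1373 and 928 FPKM in WT, against 607, 744 and 685 in KO (log2 difference -0.64, SE 0.24, limma adjusted p = 0.649). Psmb6, a catalytic subunit of the core, stood at 911, 1379.7 and 1046 and 762, 836 and 669, and Psma1, another outer ring subunit, at 711, 1378 and 869 and 598, 681 and 501. In each of the 3 the gap between the lowest WT and the highest KO library was smaller than the range of WT, in which library 2 was highest. Median transcript length was 1561 nt for this list, and the list median was -0.15 without WT library 2. Cytosolic ribosomal protein genes, also short, had 57 of 77 below 0 (median -0.075) with no member separating the groups. Autophagy and mitophagy genes had a median of -0.054. Atg12, the ubiquitin-like conjugate of autophagosome formation, stood at 131, 77 and 43.1 in WT, against 25.6, 40.4 and 29.8 in KO (log2 difference -1.25, SE 0.37, limma adjusted p = 0.617), and Map1lc3b, the LC3B marker of autophagosomes, at 291, 300.2 and 247 and 144, 184 and 232, both without overlap. Pink1, the kinase that marks damaged mitochondria, stood at 13.5, 11.8 and 8.04 and 11.3, 41.3 and 19.7 with overlap.

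The p53 target list had a median of -0.25 over 16 members, none called, with 1 member not overlapping on each side. Over all genes the shares were 5.22% higher and 5.39% lower. Cdkn1a, the cell cycle inhibitor p21, stood at 70.4, 91.2 and 6.34 FPKM in WT, against 0.666, 6.67 and 7.97 in KO (log2 difference -2.91, SE 0.88, limma adjusted p = 0.617). WT libraries 1 and 2 were far above the other 4, and WT library 3 lay within the KO range. Mdm2, the ligase that degrades p53, stood at 44.4, 37.7 and 16.1 and 12.7, 18.5 and 13, and Trp53inp1, a stress protein, at 27.1, 16.8 and 3.59 and 0.0865, 0.346 and 9.79, with WT library 3 within the KO range in both. Apoptosis genes were split around 0 (median -0.022), and among them Bid, a BH3-only activator, stood at 3.06, 4.05 and 9.82 in WT, against 11.7, 25 and 16.5 in KO without overlap (log2 difference 1.57, SE 0.40, limma adjusted p = 0.56). Casp6, an executioner caspase, stood at 58.9, 94.4 and 83.5 and 110.4, 129.8 and 131, and Bcl2l1, which encodes the survival protein BCL-XL, at 1.49, 2.44 and 2.84 and 5.72, 3.99 and 6.43. Mcl1, another survival gene, lay the other way with overlap, at 64.6, 60.7 and 32.4 and 19.5, 29.9 and 35.7. Of the 19 members tested 9 lay above and 10 below 0, and none was called. Groups did not overlap for 3 higher and 1 lower in KO, against 5.22% and 5.39% of all genes. The members described as higher included Bid, which promotes cell death, and Bcl2l1, which opposes it.

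Genes of the ovulatory program were low in most libraries, and 7 of 17 matrix and prostaglandin genes passed the filter. Tnfaip6 (GRCm38 chromosome 2, 52038009 to 52056686, plus strand), which cross-links hyaluronan in the cumulus matrix, stood at 45.9, 44.9 and 8.36 FPKM in WT, against 1.41, 0 and 1.66 in KO. The groups did not overlap, WT library 3 lying between WT libraries 1 and 2 and the KO libraries (log2 difference -3.87, SE 0.67, limma adjusted p = 0.302). It was called without WT library 3 (log2 difference -4.64, adjusted p = 0.0123). Has2, which makes the hyaluronan, stood at 23.1, 2.06 and 2.08 in WT, against 0, 0 and 0.0157 in KO, so it passed the filter through WT alone and was high only in WT library 1 (log2 difference -2.60, SE 0.65, limma adjusted p = 0.56). Ptgs2 and Ptx3, a prostaglandin synthase and a matrix scaffold, were under the filter, at 37.6, 9.06 and 0.0847 and 13.7, 0.513 and 0.744 in WT, against 0.152, 0.0325 and 0.58 and 0, 0.337 and 0 in KO. Both were again highest in WT library 1. Vcan, versican, stood at 7.06, 20.6 and 12.5 and 12.7, 2.58 and 15.4, overlapping.

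Among EGF-like ligands and their feedback genes (median -0.31, -0.55 to -0.05 with 1 library left out, 9 tested, none called) Btc, betacellulin, stood at 12.1, 11.8 and 0.602 FPKM in WT, against 0, 1.97 and 1.05 in KO. Errfi1, an inhibitor of the EGF receptor, stood at 27.2, 148 and 4.04 and 4.2, 3.47 and 11.1. In both, WT libraries 1 and 2 exceeded the other 4 and WT library 3 lay within KO. The gonadotropin response list had a median of -0.31 over 16 genes (-0.66 to -0.069 with 1 library left out). Its median transcript length was 4760.5 nt, and 35.3% of all genes from 4712 nt up lay above 0. Sgk1, a kinase induced by follicle-stimulating hormone, stood at 403, 362 and 56 in WT, against 28.3, 18.9 and 81.1 in KO (log2 difference -2.48, SE 0.78, limma adjusted p = 0.617), with the same arrangement. Igf1, a growth factor of granulosa cells, stood at 96.1, 95 and 115 and 51.1, 64.4 and 19.6 without overlap (log2 difference -1.32, SE 0.72). In the steroid list (median 0.30, 0.025 to 0.64 with 1 library left out) Sult1e1 (GRCm38 chromosome 5, 87575969 to 87591594, minus strand), which sulfates and inactivates estrogen, stood at 16.7, 16.3 and 1.22 in WT, while each KO library lists it at 0. It passed the filter through WT alone and did not pass the test (limma adjusted p = 0.407), while without WT library 3 the log2 difference was -4.13 with an adjusted p of 0.000487. Star, the cholesterol transporter of steroid synthesis, stood at 3.64, 3.6 and 19.1 and 38.1, 0.674 and 426, following the theca markers in KO library 3, and their part in it was not tested. Cyp19a1, aromatase, stood at 39.5, 14.3 and 45 and 105, 9.63 and 6.95, with no order between the groups.

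Receptors and targets of oocyte growth factors, through which the oocyte controls cumulus cells by SMAD signalling, had a median of -0.20 over 17 genes (-0.15 to 0.049 with 1 library left out) and none called. Tgfbr1, the type I receptor used by GDF9, stood at 17, 10.5 and 10.3 FPKM in WT, against 2.8, 2.16 and 6.61 in KO without overlap (log2 difference -1.56, SE 0.40, limma adjusted p = 0.56). Bmpr1b, a type I receptor for BMP15, stood at 40, 15.3 and 19.1 and 9.62, 12.3 and 7.66, and Bmpr2, the type II receptor they share, at 17.2, 8.72 and 18 and 9.46, 5.43 and 6.56, the last with overlap. The BMP target Id1, an inhibitor of bHLH factors, lay the other way at 4.35, 8.94 and 92.9 in WT, against 347, 259 and 77.4 in KO (log2 difference 3.49, SE 1.02, limma adjusted p = 0.617). WT libraries 1 and 2 were under 10 FPKM, while WT library 3 and KO library 3 lay close together between them and the other KO libraries. Id3, of the same family, stood at 177, 162 and 1717 and 1826, 1333 and 514, with WT library 3 near KO library 1. Among granulosa transcription factors 10 of 11 lay above 0 (median 0.44, 0.21 to 0.73 with 1 library left out). Foxl2, which keeps granulosa identity, stood at 0.582, 0.695 and 6.54 and 16.1, 4.55 and 8.1, and Nr5a1, the steroidogenic factor SF-1, at 12.4, 9.69 and 13.1 and 25.9, 21.6 and 24.5, the latter without overlap (log2 difference 0.98, SE 0.46, limma adjusted p = 0.715).

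**Figure D4:**
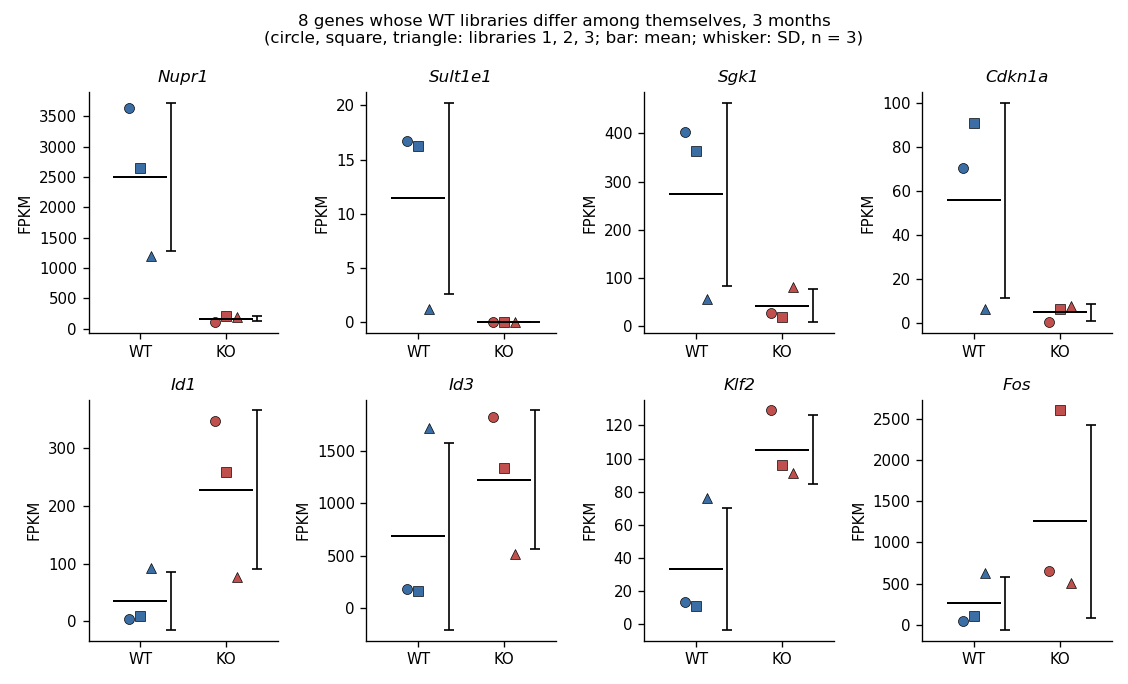
FPKM (vertical axis) of 8 genes, chosen after their values were seen, in WT (blue) and KO (red) libraries of 3 months, with circle, square and triangle for libraries 1, 2 and 3, bars for means and whiskers for SD, n = 3. The WT triangle, library 3, lies away from the WT circle and square and toward the KO points in each panel.

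Immediate-early genes, which are induced within minutes by growth factors or by cell handling, had the highest median of the same 41 lists, 0.48, with 19 of 27 above 0 and none called. This rank too is among lists chosen with earlier results of these data known. Fos stood at 47.1, 108 and 628 FPKM in WT, against 650.2, 2598 and 508 in KO, and Jun, its AP-1 partner, at 61.1, 25.1 and 76.2 and 182, 249 and 81.4. WT library 3 lay inside the KO range for Fos and just under it for Jun. Klf2, a transcription factor of this class, stood at 13.4, 10.8 and 75.9 and 129, 95.9 and 91.1 without overlap (log2 difference 2.16, SE 0.59, limma adjusted p = 0.617), and it was called without WT library 3 (adjusted p = 0.0123). Ier3, an early gene of stress and growth, lay the other way at 190.0, 808 and 176 in WT, against 27, 67.4 and 153 in KO. The centred median of the list was -0.51, -0.56 and 0.24 in WT libraries 1, 2 and 3 and -0.57, 0.71 and 0.58 in KO libraries 1, 2 and 3, so the KO libraries did not hold together, and KO library 1 was as low as WT libraries 1 and 2. The list median at 6 months was -0.52.

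Cell cycle and glycolysis lists moved with the libraries and settings used, KO library 3 among them. Over 16 alternatives the cell cycle median ran from -0.33 to 0.48, with the opposite sign in 7. Glycolysis ran from -0.71 to 0.40, with the opposite sign in 4. The cell cycle list had a median of -0.011 and, without KO library 3, of 0.48. Glycolysis had a median of -0.24 and, without that library, of 0.40. Pgk1, phosphoglycerate kinase, shows this at 995, 744 and 426 FPKM in WT, against 776, 462 and 144 in KO. Pfkm, a phosphofructokinase, stood at 2.76, 2.49 and 2.03 in WT, against 6.18, 7.63 and 5.37 in KO (log2 difference 1.10, SE 0.32, limma adjusted p = 0.617), and Ldhb, a lactate dehydrogenase, at 177, 422 and 371 and 465, 794 and 1978, both without overlap. Type I interferon genes had a median of 0.10 and, without KO library 3, of -0.27. Stat2, a factor of interferon signalling, stood at 0.903, 0.591 and 1.53 and 6.47, 3.1 and 2.91 without overlap (log2 difference 1.32, SE 0.34, limma adjusted p = 0.569), and Oasl1, an interferon-induced gene, at 1.28, 0 and 0 and 6.16, 2.08 and 1.57.

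The genes ranked first outside the lists were of varied function and none passed. Htr1d (GRCm38 chromosome 4, 136423524 to 136444398, plus strand), a serotonin receptor, stood at 4.77, 7.17 and 3.23 FPKM in WT, against 0, 0.471 and 0 in KO, and it reached 1 FPKM in WT libraries alone (log2 difference -2.36, SE 0.38, limma adjusted p = 0.225). Tmsb15l, an actin-binding thymosin gene, stood at 164, 129 and 121 and 42.2, 46 and 48.9, tight within each group (log2 difference -1.56, SE 0.30, limma adjusted p = 0.369). Osgin2, an oxidative stress-induced growth inhibitor family gene, stood at 140.0, 192 and 26.8 and 16.6, 16.8 and 12.3, with WT library 3 close above KO. Jmjd1c, a histone demethylase family gene, stood at 13.8, 14.4 and 8.3 and 4.39, 3.25 and 3.71, Mreg, melanoregulin, at 5.43, 6.59 and 3.25 and 0, 0.899 and 0.697, and the serpin gene Serpinb9b at 31.7, 2.6 and 14.1 and 0, 0.747 and 0. Like Htr1d, Mreg and Serpinb9b reached 1 FPKM in WT libraries alone, so the filter itself fixed that their groups did not overlap. In the other direction Sult5a1, a sulfotransferase gene, stood at 0, 0.0778 and 2.78 in WT, against 6.54, 7.87 and 8.37 in KO (log2 difference 2.42, SE 0.46, limma adjusted p = 0.369), and it was called without WT library 3 (adjusted p = 0.00724). Polr1b, a large subunit of RNA polymerase I, stood at 1.21, 1.46 and 1.95 and 6.98, 6.61 and 3.58, and Mycl, a MYC family factor, at 6.07, 2.26 and 14.6 and 26.9, 47.5 and 24.1. Dcaf4, a substrate receptor of CUL4 ubiquitin ligases, stood at 7.11, 8.89 and 13.6 and 23.1, 24.1 and 22.2, with KO libraries within 2 FPKM of each other. Tex14, an intercellular bridge protein gene, and Mettl24, a methyltransferase-like gene, stood at 1.79, 2.24 and 3.12 and 0.465, 0 and 0.765 in WT, against 7.05, 8.61 and 8.32 and 4.01, 3.17 and 9.05 in KO, both without overlap. Mettl24 reached 1 FPKM in KO libraries alone, so its lack of overlap followed from the filter.

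Whether these differences differed from those at 6 months was tested by the interaction of genotype and age. A gene that does not pass that test is not thereby shown to keep its difference at 6 months. The 6-month libraries are other mice, so the ages share no library. Clpp differed by -5.25 (SE 0.54) at 6 months, and its interaction was 0.22 (SE 0.76, limma adjusted p = 1.00). Of the other 19 genes named by rank, none passed the interaction test, and 13 had the same sign at both ages. Htr1d, with an interaction of -2.91 (SE 0.54, limma adjusted p = 0.795), came nearest, and its 6-month levels were 0.412, 0.816 and 0.12 FPKM in WT, against 1.57, 0.313 and 1.65 in KO. Nupr1 stood at 933, 1325 and 678 FPKM in 6-month WT and 1892, 182 and 481 in 6-month KO, levels that overlapped each other and the 3-month WT range. Hspd1 stood at 275, 220.5 and 309 in 6-month WT and 232, 219 and 348 in 6-month KO (log2 difference -0.031, SE 0.24), without the separation seen at 3 months. Mcat stood at 10.4, 10.1 and 4.83 and 12, 13.3 and 13.6 at 6 months (log2 difference 0.63, SE 0.35). The interaction was called for 1 of 10060 genes (0.00994%), and 197 (1.96%) had an unadjusted p under 0.05. Across all genes tested the log2 differences of the ages correlated at 0.303 and shared a sign for 61.0%, a description over genes, which are not independent.

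**Figure D5:**
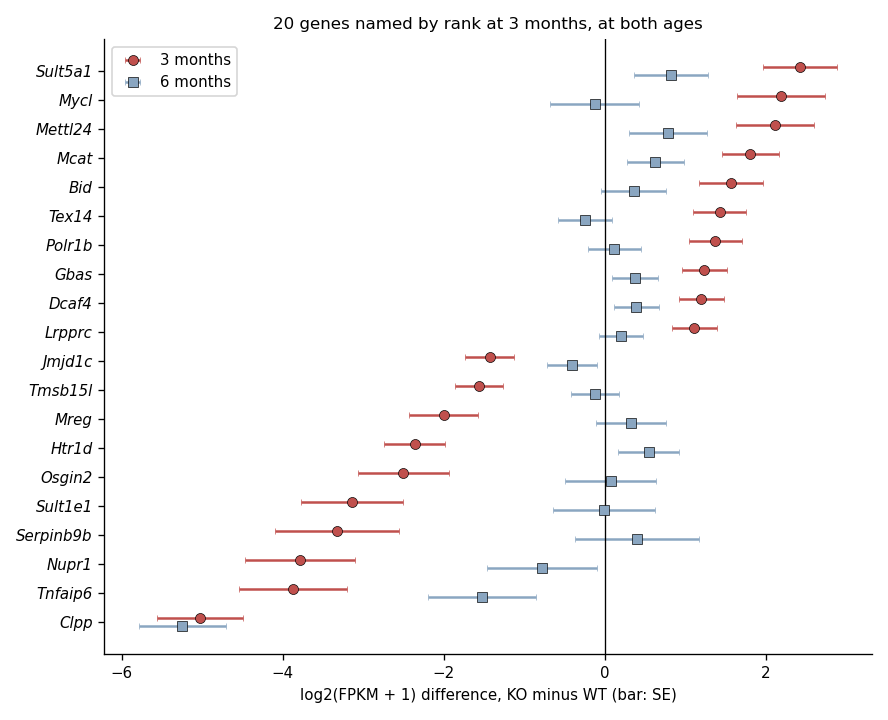
Log2(FPKM + 1) difference, KO minus WT (horizontal axis), of 20 genes named by rank at 3 months (rows), at 3 months (red circles) and 6 months (blue squares), with bars for the SE. Clpp stands near -5 at both ages, at -5.03 and -5.25, while the other 19 lie nearer to 0 at 6 months than at 3 months; the genes were chosen on the 3-month values.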

How the data were processed

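RNA of 100 cumulus cells per mouse was sequenced on an Illumina HiSeq instrument (75 bp paired ends, per the labels' protocols). Per the submitters' processing notes, the authors used Cufflinks 1.2.1, SAMtools 0.1.18, Bowtie2 2.1.0, TopHat2 2.0.10, FastQC and cutadapt, on GRCm38/mm10, and they deposited FPKM values per gene and library. Their gene annotation is not given in the sources, and without counts the counting error of a value is unknown. Low values rest on few reads.

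Tests used limma 3.58.1 (R 4.3.3) on log2 values of FPKM plus a pseudocount of 1: 4 group means over 12 libraries (8 residual and 4.1 prior degrees of freedom, eBayes with trend), KO minus WT at 3 months and the interaction with age. P-values are 2-sided, adjusted by Benjamini and Hochberg over 10060 genes, threshold 0.05. The fit was tested on simulated data. Depth was read from the spacing of low values, with a largest residual of 0.0039 log2 over 15 pairs of libraries. Centred medians are a list's median of log2 values after subtracting each gene's mean over the 6 libraries.

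Members and the 48 gene lists were chosen with earlier results of these data known. Lists are described by counts and medians, of 992 symbols 876 tested, with no set test. The naming rule took Clpp, 10 genes per direction (by size among called genes without overlap, then by smallest unadjusted p among genes without overlap and with a higher group mean of at least 5 FPKM), up to 5 members per list by smallest p, and 3 per marker list by level. Predicted, clone-named, small RNA and date-like entries were passed over in the ranking. Coordinates are from GENCODE M21, sequences from the RefSeq promoter table (GRCm38.p6). The alternatives were other pseudocounts (0.1, 5), filters (none, 5 FPKM), scalings, the 6 libraries alone, array weights, a replicate block, leaving out each library, and, added after seeing the data, leaving out 3 libraries high in other-cell markers. Those were KO library 3 of 3 months and library 3 of each genotype at 6 months, while WT library 3 of 3 months was kept. Figures were drawn with matplotlib 3.10.9 in Python 3.11.15.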

Additional observations from a re-analysis of the deposited data

Results flagged for a closer look

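Snora65, a small nucleolar RNA gene, was the 1 gene whose KO minus WT difference differed between 3 and 6 months by the interaction test (limma adjusted p = 0.011). At 3 months it stood at 15.3, 24.7 and 23.6 FPKM in libraries 1, 2 and 3 of WT, against 15.9, 22.3 and 48.4 in KO libraries 1, 2 and 3, with overlapping groups (log2 difference 0.31, SE 0.42). At 6 months it stood at 26.2, 23.2 and 50.5 in WT, while each KO library lists it at 0 (log2 difference -5.02, SE 0.42). The interaction was 5.32 (SE 0.59), and it was not called in the analyses without the filter on low values, with a pseudocount of 5 or without 3-month WT library 1. The call rests on the values of 0 in 6-month KO. Small RNA entries were passed over in the ranking of genes, and their share of the FPKM sum ran from 0.277% to 32.0% over the 3-month libraries. Whether the difference reflects the recovery of such short RNAs was not tested.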

How the results depend on the processing

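Clpp kept its direction in all 16 alternatives, with a log2 difference of -5.52 (limma adjusted p = 0.0531) at a pseudocount of 0.1 and -5.03 (adjusted p = 0.0629) without a filter, neither under 0.05. Leaving out 1 library gave -5.56 to -4.63. With the replicate number as a block it was -5.03 (adjusted p = 0.169), and the block called 0 genes. Same-numbered libraries deviated together at 0.09, -0.02 and 0.20, the last being the highest of all WT and KO pairs. WT library 1 matched KO library 2 better than KO library 1, so the numbers were not taken as pairing. At 3 months library 3 of each genotype was the highest of its group in theca, blood and oocyte markers. Whether libraries numbered 3 share a collection or batch was not tested. Called genes, 1 in all and 0 higher, numbered 0 without a filter, at a pseudocount of 0.1 and with the block, and 0 to 14 when a library was left out (0 to 3 higher, 0 to 11 lower). Where limma called 0 genes, 369 to 983 had an unadjusted p under 0.05. The number at an unadjusted p under 0.05 was 453 with a filter at 5 FPKM, where fewer genes were tested, 1428 without 3 libraries rich in other-cell markers, and 369 to 1147 when 1 library was left out. Interaction calls were 0 without a filter, at a pseudocount of 5 and with small RNA left out, and 0 to 4 when 1 library was left out. Leaving out small RNA removes Snora65, the 1 gene called, so its call could not recur there. For the rest the cause was not tested. Removing small RNA entries and rescaling moved the median of all genes to 0.12. Of 48 list medians 25 kept their sign in every alternative that gave a value. So did 95 of the 104 genes, other than Clpp, that were put through the alternatives. Array weights turned Cyp17a1 to -0.013, Hba-a1 to -0.87, Hbb-b1 to -1.17 and Inha to 0.0076. Without those 3 libraries the log2 differences were -0.76 for Cyp17a1, 0.14 for Cyp19a1, -1.53 for Hba-a1, -1.88 for Hbb-b1, 0.17 for Inha and -0.13 for Snora65. Leaving out 1 library turned these 6 and 3 more. Their ranges were -0.76 to 4.04 for Cyp17a1, -1.73 to 0.14 for Cyp19a1, -1.53 to 3.41 for Hba-a1, -1.88 to 2.90 for Hbb-b1, -0.024 to 0.76 for Hspe1, -0.47 to 0.17 for Inha, -0.13 to 0.64 for Snora65, -2.31 to 0.35 for Trib3 and -0.93 to 0.17 for Vcan.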
